A study of Mus musculus with 8 samples.

Results

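The genes described here encode the Bcl2 family, the caspases and the inhibitors that hold them back, the core machinery of apoptosis. Their mRNA was measured in cultured hippocampal neurons after 4 h in 55 mM KCl and in untreated cultures. A gene was taken as measured when a probe set carried its symbol and no other. That held for 29 of 30 listed genes and for 22180 genes in all, and Bax was not analysed here. By textbook role, 10 of the 29 favour survival and 19 favour death. Of the 29, Mcl1 rose after KCl and the other 28 did not pass the test over all genes. Xiap had a lower mean after KCl and passed only in a fit that pairs arrays by their replicate number.

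Hippocampi of C57BL/6J embryos at E18.5 were dissociated and grown for 11 days in vitro, and total RNA was hybridised to 8 Affymetrix whole-transcript arrays. The KCl group held 4 arrays from cultures kept in 55 mM KCl for 4 h, and the untreated group held 4 arrays from cultures without it. All cultures were of the same wild-type strain, and all received AraC, which kills dividing cells, with their medium changes. Each array has its own mouse number in the labels, which do not say whether cultures were pooled or made separately, so the p-values measure the spread between these arrays. The series was designed to define genes that respond to neuronal activity, and raised potassium depolarises neurons and lets calcium in.

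Apoptosis in neurons runs mainly through the mitochondrion. Bax and Bak1 open pores in its outer membrane, pro-survival relatives such as Bcl2, Bcl2l1 and Mcl1 bind and restrain them, and BH3-only proteins release that restraint. Cytochrome c then assembles with Apaf1 and activates caspase 9, which cleaves further caspases, and Xiap blocks caspases until Diablo removes it. Chronic depolarisation has long been used to keep some cultured neurons alive. Much of this machinery is controlled by phosphorylation, cleavage and protein turnover, and splicing gives several of the genes forms of opposite effect, none of which the gene-level array values show.

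Values are log2 RMA values, so a difference of 1 is a doubling of signal, and low values understate changes. Array medians lay between 4.44 and 4.48. The activity marker Fos stood at 10.36, 10.30, 10.56 and 10.41 in the KCl arrays, against 6.90, 5.72, 5.57 and 6.69 in the untreated arrays, so every KCl array lay above every untreated one (log2 difference 4.19). The labelled cell type was checked on 7 neuronal markers, whose mean was 9.63 to 10.21 in KCl arrays and 9.47 to 10.02 in untreated arrays. Astrocyte markers were also bright, with a mean over 5 genes of 9.21 to 9.51 in KCl arrays and 9.23 to 10.01 in untreated arrays, so the RNA came from mixed cultures. Of the 30 measured markers of neurons, astrocytes, oligodendrocyte lineage, microglia, endothelium and fibroblast or mural cells, 1 passed the test, the astrocytic glutamate transporter Slc1a2 (log2 difference -0.78, limma adjusted p = 0.0479, 0.062 with the replicate block). The means of the microglial and endothelial lists were between 3.83 and 4.59 in all arrays, and array values have no zero. In RNA from whole cultures, fewer cells of a type and less RNA per cell cannot be told apart.

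Among the 5 pro-survival Bcl2 relatives, 1 rose, none fell and 4 did not pass. Mcl1, a short-lived protein that binds Bak1 and several BH3-only proteins, stood at 9.69, 9.53, 9.63 and 9.56 in the KCl arrays (replicates 1 to 4), against 8.88, 8.95, 8.61 and 8.49 in the untreated arrays. The KCl arrays averaged 9.60 ± 0.0708 and the untreated arrays 8.73 ± 0.221 (SD, n = 4 each), and all KCl values were above the highest untreated value. The log2 difference was 0.87 (SE 0.12, limma adjusted p = 0.0114), which is 1.83-fold with a 95% interval of 1.51 to 2.21. It was positive in each same-numbered pair, at 0.81, 0.58, 1.02 and 1.07. The call held in each of the 8 fits that left out a single array, with log2 differences of 0.79 to 0.94 and adjusted p of 0.0157 to 0.0464. It also held with the replicate block (adjusted p = 0.0158) and without both arrays numbered 1 (0.0307). A second, dim Mcl1 probe set had 4.26, 4.67, 4.13 and 4.25 in KCl arrays and 3.88, 4.05, 4.03 and 3.94 in untreated arrays. Its groups did not overlap either, but its log2 difference of 0.35 did not pass (adjusted p = 0.254).

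The RefSeq windows before the start sites of the genes called in either fit are shown because these are the only 2 of the 29 genes called in either, Mcl1 higher in both fits and Xiap lower only with the replicate block (adjusted p = 0.029, against 0.173 without it). They are the 250 bases upstream on the plus strand in GRCm38.p6, chr3:95658471-95658720 for Mcl1 and chrX:42068148-42068397 for 1 of the 3 Xiap windows. Capitals mark matches on either strand to the motifs searched.
Mcl1: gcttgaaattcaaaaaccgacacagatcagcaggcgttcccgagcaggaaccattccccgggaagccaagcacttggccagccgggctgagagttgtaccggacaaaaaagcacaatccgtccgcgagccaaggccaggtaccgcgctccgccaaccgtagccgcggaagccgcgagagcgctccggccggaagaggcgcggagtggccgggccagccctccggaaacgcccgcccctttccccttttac
Xiap: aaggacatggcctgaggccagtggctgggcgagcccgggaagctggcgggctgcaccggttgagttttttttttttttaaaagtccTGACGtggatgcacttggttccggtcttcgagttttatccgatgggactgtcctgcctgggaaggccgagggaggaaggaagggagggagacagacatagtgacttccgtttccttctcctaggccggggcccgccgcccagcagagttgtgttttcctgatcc
The motifs were the cAMP response element TGACGTCA, its core TGACG, the AP-1 site TGANTCA, the FOXO site GTAAACA, the Nr4a site AAAGGTCA and the E-box CACGTG, and each match to the full element is also a match to its core. The Mcl1 window holds none of these letters. The Xiap window holds the core TGACG, 164 bases before the start, which 17.8% of 32851 promoter windows of this length hold, and the other 2 Xiap windows hold none. Over all windows, 1.55% hold the full response element, 6.75% the AP-1 site, 3.17% the FOXO site, 1.34% the Nr4a site and 6.02% the E-box.

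The other 4 pro-survival relatives lay close to their untreated levels. Bcl2l1, which encodes Bcl-xL, the relative with the best known role in keeping developing neurons alive, had 6.56, 6.87, 6.61 and 6.46 in KCl arrays and 6.23, 6.56, 6.96 and 6.30 in untreated arrays. The groups overlapped, and the log2 difference of 0.11 had a 95% interval of -0.28 to 0.51. Bcl2, the founding member, had 7.09, 6.56, 6.13 and 6.44 in KCl arrays against 7.07, 6.58, 6.45 and 6.19 in untreated arrays (difference -0.02, interval -0.56 to 0.53). Its values followed the replicate number, with both arrays numbered 1 the highest of their groups. Bcl2l2, which encodes Bcl-w, differed by -0.01 (-0.46 to 0.44). Bcl2a1a, the mouse A1 gene best known from blood cells, differed by 0.10 (-0.38 to 0.58). Its near-identical copies share sequence, and probe sets annotated to several of them were left out, so its signal is uncertain. A second, dim probe set of Bcl2 differed by 0.08.

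**Figure D1:**
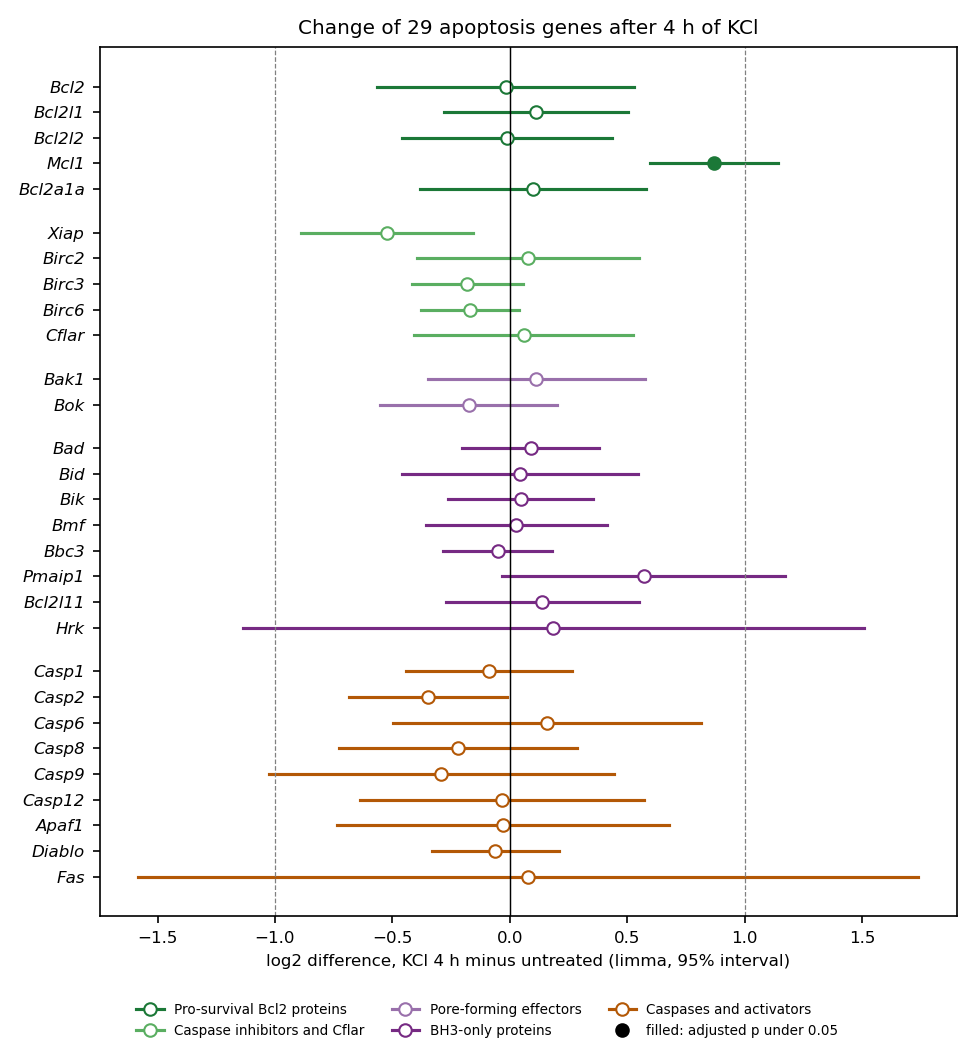
Log2 difference between KCl 4 h and untreated arrays for the 29 measured genes, in order of role, with limma 95% intervals (n = 4 arrays each) and dashed lines at 2-fold. Mcl1 at 0.87 is the filled point (adjusted p under 0.05), Xiap lies at -0.52, and the widest intervals are those of Fas and Hrk.

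Of the 5 inhibitors that act on caspases or their activation, none passed without the replicate block, and Xiap was called lower with it. Xiap, which directly binds and blocks caspases, stood at 7.58, 7.30, 7.10 and 7.09 in the KCl arrays, against 8.15, 7.79, 7.63 and 7.59 in the untreated arrays. The highest KCl value was just below the lowest untreated value, so the groups did not overlap. Within same-numbered pairs the difference was nearly constant, at -0.56, -0.49, -0.54 and -0.50. The log2 difference was -0.52 (SE 0.161, adjusted p = 0.173) without the block, and with it the SE was 0.0889 (adjusted p = 0.029), a fold of 0.696. Without both arrays numbered 1, a comparison with fewer arrays, the call was not reached with the block (adjusted p = 0.0858) or without it (0.0857), at a log2 difference of -0.51.

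Birc6, a giant inhibitor that is also a ubiquitin ligase, had 9.52, 9.80, 9.64 and 9.60 in KCl arrays and 9.79, 9.92, 9.76 and 9.77 in untreated arrays. It was lower after KCl in 4 of 4 pairs, but the groups overlapped and the difference of -0.17 did not pass (adjusted p = 0.529, 0.42 with the block). A second, dim Birc6 probe set differed by 0.08. Birc2 and Birc3, ubiquitin ligases of TNF receptor signalling, differed by 0.08 (-0.40 to 0.55) and -0.18 (-0.42 to 0.06). Cflar, which stops caspase 8 from being activated at death receptors, differed by 0.06 (-0.41 to 0.53).

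**Figure D2:**
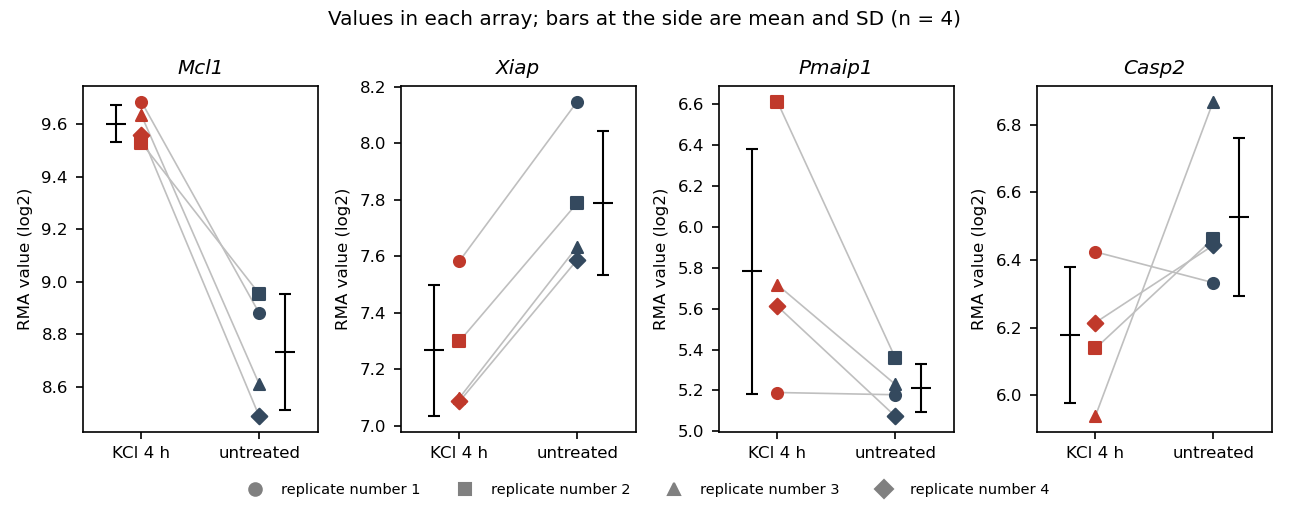
RMA values (log2) of Mcl1, Xiap, Pmaip1 and Casp2 in each array, KCl 4 h on the left and untreated on the right, with lines joining arrays of the same replicate number and bars at the side for mean and SD (n = 4 each). The Mcl1 and Xiap groups do not overlap, and those of Pmaip1 and Casp2 do.

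Neither measured pore-forming protein passed. Bak1 had 6.62, 6.71, 6.62 and 5.85 in KCl arrays and 6.40, 6.52, 6.40 and 6.03 in untreated arrays, a difference of 0.11 (-0.35 to 0.58) with both arrays numbered 4 the lowest of their groups. Bok, a relative with its own mode of activation, differed by -0.18 (-0.55 to 0.20).

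None of the 8 BH3-only genes passed, with or without the block. Pmaip1 encodes Noxa, which binds Mcl1 and promotes its degradation. It had 5.19, 6.61, 5.72 and 5.61 in KCl arrays against 5.18, 5.36, 5.23 and 5.08 in untreated arrays. It was higher after KCl in 4 of 4 pairs, but by 0.01 in pair 1 and by 1.25 in pair 2, and the groups overlapped. The log2 difference was 0.57 (limma adjusted p = 0.421, 0.179 with the block). Its interval was -0.03 to 1.17 without the block and 0.11 to 1.03 with it, which leaves more than a doubling within both. These intervals are not adjusted for the number of genes tested.

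Hrk, a BH3-only gene expressed largely in neurons, and Bcl2l11, which encodes Bim, are known to be induced when sympathetic or cerebellar neurons lose survival signals. Hrk had 5.60, 6.85, 7.64 and 7.52 in KCl arrays and 5.32, 6.66, 7.54 and 7.34 in untreated arrays. The means of the 4 pairs spanned 2.13, and the differences within a pair were 0.09 to 0.28. The difference of 0.18 had an interval of -1.14 to 1.51 without the block and -0.03 to 0.40 with it (adjusted p = 0.373). Bcl2l11 differed by 0.14 (-0.27 to 0.55), with 4.60, 4.43, 4.25 and 5.10 in KCl arrays and 4.37, 4.54, 4.30 and 4.62 in untreated arrays.

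The other 5 BH3-only genes differed by -0.05 to 0.09. They were Bad, which growth factor signals silence by phosphorylation (0.09), Bid, which caspase 8 cleaves to link death receptors to mitochondria (0.04), Bik, found at the endoplasmic reticulum (0.05), Bmf, tied to the cytoskeleton (0.03), and Bbc3, the p53 target that encodes Puma (-0.05). Of the 8, 7 differences were above 0, while 47.1% of all genes were. Among the 29 genes, 10 were dimmer than the median gene, and changes of these may be understated. They were Bcl2a1a, Birc3, Bok, Bad, Bik, Bmf, Bbc3, Bcl2l11, Casp1 and Casp8.

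None of the 9 caspases and activators passed. Of the 9 differences, 7 were below 0, as were those of 11724 of all 22180 genes. Among the 7, the sign changed for Apaf1, Casp12 and Casp9 with other processing or with arrays left out. Casp2, the most conserved initiator caspase, had the smallest p of the 9, with 6.42, 6.14, 5.94 and 6.21 in KCl arrays and 6.33, 6.46, 6.87 and 6.44 in untreated arrays. It was lower in 3 of 4 pairs, the groups overlapped, and the difference of -0.35 (-0.68 to -0.01) did not pass (adjusted p = 0.363, 0.359 with the block). Casp9, which Apaf1 activates, had 4.96, 5.42, 5.43 and 5.05 in KCl arrays against 6.57, 5.17, 5.21 and 5.09 in untreated arrays. The untreated array numbered 1 stood far above the other 3, and the difference of -0.29 was 0.06 without that array.

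Apaf1 itself had 6.71, 7.80, 6.82 and 6.55 in KCl arrays and 6.52, 7.56, 7.13 and 6.79 in untreated arrays, a difference of -0.03 (-0.74 to 0.68). Diablo, the mitochondrial protein that displaces Xiap from caspases, differed by -0.06 (-0.33 to 0.21). The initiator Casp8 differed by -0.22 (-0.73 to 0.29), Casp6, an executioner linked to axon degeneration, by 0.16 (-0.50 to 0.81), the inflammasome protease Casp1 by -0.09 (-0.44 to 0.26) and Casp12, which in mouse is tied to the endoplasmic reticulum, by -0.03 (-0.64 to 0.57). The death receptor Fas had 8.87, 6.95, 6.67 and 6.35 in KCl arrays and 8.98, 7.11, 6.16 and 6.28 in untreated arrays. Both arrays numbered 1 were the highest, and the difference of 0.08 had an interval of -1.58 to 1.74 without the block and -0.24 to 0.40 with it.

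Over the 29 genes, 1 of 29 was called, or 3.45%, beside 2.36% of all 22180 genes at the same threshold. With the replicate block the count was 2 of 29, or 6.9%, beside 4.44% of all genes. The groups did not overlap for 2 of 29 genes, or 6.9%, beside 8.16% of all genes, and these were Mcl1 and Xiap. The direction was the same in 4 of 4 pairs for 5 of 29, or 17.2%, beside 24.2% of all genes. They were Mcl1, Pmaip1 and Hrk (higher) and Xiap and Birc6 (lower). Before adjustment, 3 of 29 genes (Mcl1, Xiap and Casp2) had a limma p under 0.05, or 10.3%, beside 13% of all genes. As shares, all of these lie near those of all genes.

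Set side by side, the survival and the death genes had nearly the same median difference. The median log2 difference was 0.02 over the 10 survival genes and 0.03 over the 19 death genes, beside -0.01 over all genes. Of the survival genes 1 was called higher and none lower (in the block fit 1 higher and 1 lower), and no death gene passed in either fit. Over all genes 2.36% were called, or 4.44% with the block. At such shares few calls or none fall to 10 or 19 genes, and the counts of the classes were not compared by a test. The mean over survival genes was 6.61 ± 0.092 in KCl arrays and 6.57 ± 0.111 in untreated arrays, and over death genes 5.37 ± 0.124 in KCl arrays and 5.36 ± 0.095 in untreated arrays (SD, n = 4 each). These means combine different probe sets, so they compare arrays with each other and not the classes. Survival minus death was 1.26, 1.09, 1.33 and 1.27 in KCl arrays and 1.17, 1.14, 1.39 and 1.16 in untreated arrays, and the groups overlapped. Within the survival class the median was 0.10 for the Bcl2 relatives, with 3 of 5 above 0, and -0.17 for the inhibitors, with 2 of 5 above 0, and the difference between these medians was not tested. Without Mcl1, the mean over the other 9 survival genes was 6.27 in KCl arrays and 6.33 in untreated arrays.

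**Figure D3:**
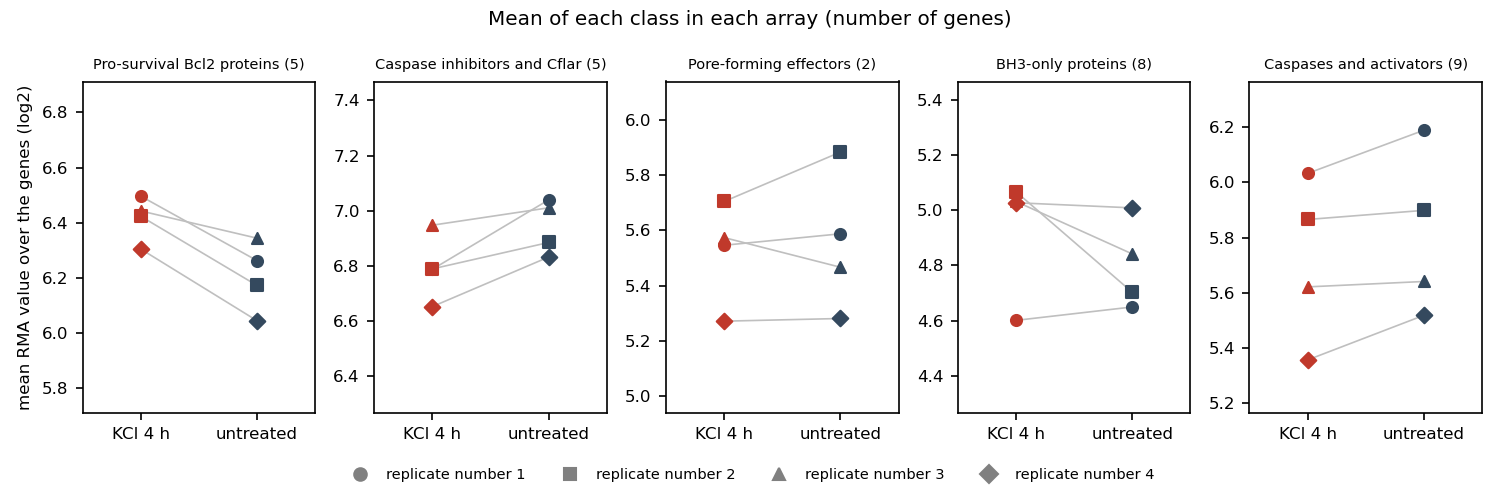
Mean RMA value (log2) over the genes of each role in each array, KCl 4 h on the left and untreated on the right, with lines joining arrays of the same replicate number. Each panel spans the same range, the numbers in brackets are genes, and the KCl and untreated arrays overlap in every panel.

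The width of the intervals shows what these arrays could resolve in signal. For 24 of the 28 genes that did not pass, or 85.7%, the 95% interval of the difference lay within 2-fold in both directions. That held for 87.3% of all genes. For 18 of the 24 the interval lay within 1.5-fold. The 4 whose intervals reached beyond 2-fold were Pmaip1, Hrk, Casp9 and Fas. All members dimmer than the median gene were among the 24. Their changes may be understated, so a narrow interval there does not bound the change in mRNA. With the replicate block, 26 of the 29 intervals lay within 2-fold, and those of Mcl1, Pmaip1 and Casp9 did not. All 28 estimates were under 1.5-fold.

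Most of the variation in these genes went with the replicate number and not with KCl. Of each gene's variance over the 8 arrays, the replicate number took a median of 70.2% and KCl 4.55%, beside 46.8% and 10.7% over all genes. The number took more than KCl for 24 of 29 genes, beside 76.5% of all genes. The number separates 4 pairs and KCl only 2 groups, so the number tends to take the larger share even where neither acts. The exceptions were Mcl1, where KCl took 90.4%, Xiap (60.6%), Birc6 (49.4%), Casp2 (45.8%) and Birc3 (40%). Hrk (98.7%), Fas (98.4%), Apaf1 (92.2%) and Casp12 (91%) had the largest shares by number. Hrk was lowest and Fas highest in both arrays numbered 1, and the mean log2 values of Fas over the 4 pairs spanned 2.61. In the same 2 arrays the mean over the neuronal markers was the lowest of its group, at 9.63 in the KCl and 9.47 in the untreated array, and 5 of the 7 markers were lowest in both, while Snap25 was highest in both. The mean over the astrocyte markers was the highest of its group there, at 9.51 in the KCl and 10.01 in the untreated array. In the KCl group it was only just above the 9.48 of array 2. Of the 5 astrocyte markers, 2 (Gfap and Aqp4) were highest in both arrays numbered 1, while Aldh1l1 was lowest in KCl array 1. The fibroblast and mural markers had means of 4.91 and 4.90 in KCl arrays 1 and 2 and 4.58 and 4.57 in KCl arrays 3 and 4, against 4.89, 4.82, 4.45 and 4.45 in untreated arrays 1 to 4. Of its 5 markers, 2 (Col1a1 and Pdgfrb) were higher in arrays 1 and 2 than in arrays 3 and 4 of both groups, and Dcn was lowest in KCl array 1. The part of cell makeup in these differences was not tested.

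**Figure D4:**
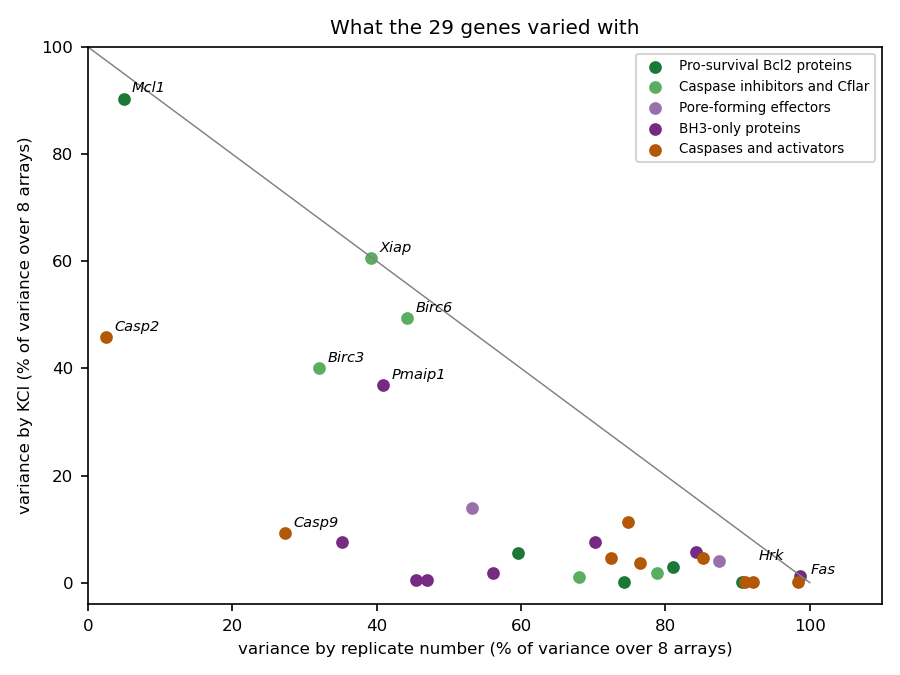
Share of each gene's variance over the 8 arrays that went with KCl (vertical axis, %) against the share that went with the replicate number (horizontal axis, %), 1 point a gene, coloured by role, with a line where both add up to all of it. Mcl1 lies at 90.4% by KCl, and Fas and Hrk lie above 98% by number.

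**Figure D5:**
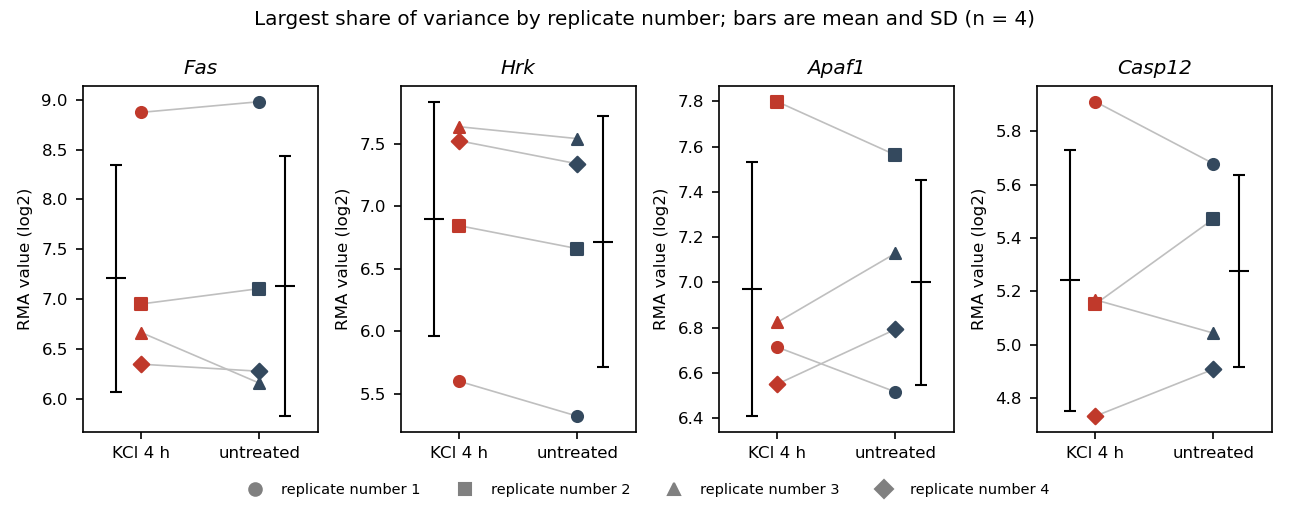
RMA values (log2) of Fas, Hrk, Apaf1 and Casp12, the 4 genes with the largest share of variance by replicate number, KCl 4 h on the left and untreated on the right, with lines joining same-numbered arrays and bars for mean and SD (n = 4 each). Both arrays numbered 1 are the highest for Fas and Casp12 and the lowest for Hrk, both arrays numbered 2 are the highest for Apaf1, and some of the other lines lie close together or cross.

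Of 55 further apoptosis genes listed from textbook knowledge, 45 were measured, and none passed the limma test over all genes with or without the replicate block. The other 10 were not analysed here. Before adjustment, 3 of 45 had a p under 0.05, or 6.67%, beside 13% of all genes, and the groups did not overlap for the same 3, beside 8.16% of all genes. Neither share exceeds that of all genes, and the 3 are given as those of smallest p. Pidd1, a scaffold that activates caspase 2, had 4.43, 4.43, 4.66 and 4.83 in KCl arrays and 4.98, 5.29, 4.84 and 4.95 in untreated arrays (difference -0.43, adjusted p = 0.183). Bnip2, which binds Bcl2, had 8.68, 8.17, 7.95 and 7.82 in KCl arrays and 7.39, 7.80, 6.97 and 7.57 in untreated arrays (0.72, adjusted p = 0.184). Dffa, which holds the apoptotic DNA-cutting nuclease inactive until caspases cleave it, had 6.40, 6.68, 6.62 and 6.46 in KCl arrays and 6.94, 6.71, 6.75 and 7.08 in untreated arrays (-0.33, adjusted p = 0.238). The neurotrophin gene Bdnf, whose product supports neuronal survival, stood at 7.42 ± 0.846 in KCl arrays and 6.25 ± 0.431 in untreated arrays (SD, n = 4 each, adjusted p = 0.235).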

How the data were processed

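RNA from 4 KCl and 4 untreated cultures was read on 8 arrays, and samples were grouped by title. The deposited log2 values came from the authors; RMA and Partek are named in the submitters' processing notes, without version or settings, and per the labels' protocols the RNA was amplified and labelled with a WT Plus kit. RMA compresses differences near background. Gene names come from GEO's annotation of the platform, and probe sets with several symbols (1814 of 34472) were left out. Per gene the probe set of highest mean was kept, and 3 members had a second one.

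Groups were compared with limma 3.58.1 (R 4.3.3, lmFit, default eBayes, two-sided, Benjamini-Hochberg over 22180 genes, threshold 0.05). Only the fit without the replicate block was run on simulated data. The simulated noise was independent between arrays, so the likeness of same-numbered arrays was not part of it. Intervals are limma's at 95%. Deviations from the group means correlated at 0.638, 0.234, 0.409 and 0.368 within the 4 same-numbered pairs, all over 0.1. Between arrays of different numbers the highest correlation was 0.302, and all 8 arrays correlated best with their own number. Same-numbered arrays were therefore taken as pairs, from these same data, and the replicate block was added in a further fit. No label ties a number to a litter or a day. All members are named by role. Of other listed genes, those called were to be named, or else the 3 of smallest p. Members and lists were chosen with earlier results of these data known. Alternatives were the block, quantile normalization, median centring, mean of probe sets, brighter genes, trended and robust eBayes, array weights, each array left out, and no arrays numbered 1. The fit without arrays numbered 1 that kept the block was chosen after seeing the data. The number of arrays limits precision. No values of other samples were present (0 columns). Promoter windows are RefSeq's for GRCm38.p6, matched by symbol for 27 of 29 members. Figures used matplotlib 3.10.9 in Python 3.11.15.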

Additional observations from a re-analysis of the deposited data

Results flagged for a closer look

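In 58 groups of 4 arrays (29 genes, 2 groups each), 2 held an array far from the other 3 by Dixon's ratio, the gap to the nearest array over the group's range, against its 95% critical value. Chance alone marks about 1 in 20 such groups. The KCl array numbered 4 had the lowest Bak1 of its group, 5.85 beside 6.62 to 6.71 (ratio 0.894). The untreated array numbered 1 had the highest Casp9 of its group, 6.57 beside 5.09 to 5.21 (ratio 0.919).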

How the results depend on the processing

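Mcl1 was called higher under each of the 17 alternatives run over one value per gene, at log2 differences of 0.61 (mean of its probe sets) to 0.94 and adjusted p up to 0.0467. Of 486 member results under alternatives, 2 changed side of the threshold: Xiap, called lower with the replicate block (adjusted p = 0.029), which made the count of members called lower 1 against 0 without it, and the second Mcl1 probe set (0.35, adjusted p = 0.254). The block changed no other member's call. Over all genes it gave 539 higher and 446 lower, against 297 and 227 without it; trended and robust eBayes gave 150 lower. Leaving out single arrays gave 118 to 254 higher and 68 to 247 lower, with fewer samples each time, and a median over death genes of -0.083 to 0.037. The sign of 54 member results changed, each for a gene never called. With repeated quantile normalization the log2 differences were 0.0299 for Apaf1, 0.052 for Bcl2, 0.0296 for Bcl2l2 and 0.013 for Casp12, and with median centring 0.0052 for Apaf1, 0.016 for Bcl2 and 0.022 for Bcl2l2. Bcl2 was at 0.032 with the mean of its probe sets and 0.082 on its second one, Birc6 at 0.076 on its second one, and Bcl2l2 at 0.039 with array weights. Without both arrays numbered 1, with or without the block, Bcl2l2 was at 0.069, Casp6 at -0.046 and Casp9 at 0.146. With single arrays left out the ranges were -0.30 to 0.16 for Apaf1, -0.096 to 0.0040 for Bbc3, -0.20 to 0.15 for Bcl2, -0.053 to 0.24 for Bcl2a1a, -0.0296 to 0.26 for Bcl2l11, -0.17 to 0.15 for Bcl2l2, -0.10 to 0.17 for Bid, -0.039 to 0.17 for Bik, -0.032 to 0.26 for Birc2, -0.065 to 0.15 for Bmf, -0.26 to 0.14 for Casp12, -0.15 to 0.32 for Casp6, -0.43 to 0.061 for Casp9, -0.091 to 0.26 for Cflar, -0.47 to 0.69 for Fas and -0.28 to 0.62 for Hrk. The cause of these shifts was not tested. Signal over background could not be assessed from the deposited values.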
